A study of Mus musculus with 9 samples.

Results

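The 7 genes described here encode receptors that steer T cells through the thymus and out of it. They are the chemokine receptors Ccr4, Ccr7, Ccr9, Cxcr3, Cxcr4 and Cxcr6 and the sphingosine-1-phosphate (S1P) receptor S1pr1. They were taken by gene symbol from a table of 21883 gene models, and all 7 were present, each on a single row, and passed the filter on low values in every comparison. RNA was sequenced from invariant natural killer T (iNKT) cells, T cells with a semi-invariant TCR that recognize lipids on CD1d, after sorting from the mouse thymus by CD1d tetramer, CD24, CD44 and NK1.1. There were 3 groups of 3 libraries. WT stage 2 cells (CD24lo CD44hi NK1.1lo) and WT stage 3 cells (CD24lo CD44hi NK1.1hi) came from C57BL/6 mice at 6 weeks of age. Med23-deficient stage 2 cells came from C57BL/6 mice in which a floxed Med23 gene, which encodes a subunit of the Mediator complex, is deleted by Cd4-Cre, a driver active from the CD4+CD8+ thymocyte onward, so that other T cells of these mice carry the deletion as well. The floxed line had been backcrossed to C57BL/6, and the labels give no age for this group. The labels call the libraries of a group replicates without tying them to animals, while the methods of the study call its RNA-seq data representative of independent experiments. The p-values below set each difference against the spread between libraries, and how much of that spread lies between animals is not given.

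Chemokine receptors and S1P receptors are membrane proteins that signal mainly through inhibitory G proteins and move the cell toward a higher concentration of ligand. In the thymus, Cxcr4 and Ccr9 hold and place immature cells by CXCL12 and CCL25, Ccr7 and Ccr4 draw selected cells toward the medulla, and S1pr1 lets mature cells leave along a gradient of S1P toward the blood. Cxcr3 and Cxcr6 are receptors of effector and tissue-resident lymphocytes, and Cxcr6 with its ligand CXCL16 is known for the survival and patrolling of iNKT cells in the liver.

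Values are FPKM (fragments scaled to the length of the gene model and to the fragments of the library) as deposited, a scale on which levels can be compared between genes. No counts were given, so the depth is unknown. The number of gene models above 0 ranged from 15584 to 17333 per library. A single gene model, Gm23935, took 62.2% to 71.9% of the summed FPKM of each library. Differences were tested with limma on log2(FPKM + 1), a scale on which fold changes of low genes are understated. There the variance of each gene is moved toward a value fitted over all genes, and each SE of a log2 difference uses this moderated variance. A gene was called under either of 2 rules, a 2-fold or larger difference whose unadjusted p was 0.05 or lower (the fold and p thresholds) or, after Benjamini-Hochberg adjustment over every gene tested, an adjusted p of 0.05 or lower. With 3 libraries against 3, an exact permutation test of a single gene cannot give a two-sided p under 0.10, and none was run.

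The targeted gene was checked first. Med23 was at 5.51, 5.15 and 6.74 FPKM in WT stage 2 libraries, at 7.14, 4.44 and 6.12 in WT stage 3, and at 4.80, 3.60 and 3.92 in the Med23-deficient libraries. The Med23-deficient values lay below every WT stage 2 value, but transcript remained, and the log2 difference of -0.41 ± 0.18 (SE) had an adjusted p of 0.552. A level over the whole gene model includes exons outside the floxed part, and exons were not analysed here.

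The sorted cells were also checked against marker genes. Trac, Cd3d, Cd3e and Cd3g, the T cell receptor alpha constant gene and the CD3 chains, were expressed in every library, with Trac at 265 to 392. Of the 8 T cell and iNKT markers, Thy1 was lower in Med23-deficient than in WT stage 2 cells under both rules (log2 difference -1.11, adjusted p 0.030), and Cd5 (-1.10, adjusted p 0.042) and Zbtb16 were lower in WT stage 3 than in WT stage 2 cells under both rules. Zbtb16, which encodes the iNKT factor PLZF, was at 112, 88 and 103 FPKM in WT stage 2, at 22.7, 33.4 and 26.4 in WT stage 3 and at 90.85, 75.25 and 68.1 in Med23-deficient cells. Markers of immature CD4+CD8+ thymocytes, with 7 of 7 in the table, summed to between 1.67 and 4.99 FPKM per library, and Cd24a, the gene of the sorting marker CD24, was at or below 0.72. The 3 B cell markers in the table summed to at most 0.51 FPKM, the 4 myeloid and dendritic cell markers to at most 2.33, and the erythroid gene Hbb-bs was at 0.75 or less. These maxima, and the 4.99 FPKM above, were all in WT stage 3 replicate 2. The B cell sum was 0.50 in WT stage 2 replicate 2 and the myeloid sum 2.32 in Med23-deficient replicate 3, nearly as high. Pecam1, on the list of epithelial and endothelial markers, was the exception and is described below. Klrb1c, the gene of NK1.1, was at 16.3, 26.2 and 7.65 FPKM in WT stage 2, at 95.1, 57.3 and 72.7 in WT stage 3 and at 4.60, 2.61 and 3.04 in Med23-deficient cells, so it was highest in the group sorted as NK1.1hi.

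Promoter windows are shown for Ccr4 and Ccr9, which fell together between the WT stages, and for Cxcr3 and Cxcr6, which were not called there (both described below). Windows of 300 bases, from 250 before to 50 after the RefSeq start (build GRCm38.p6), were found for 5 of the 7, Ccr4, Ccr9, Cxcr3, Cxcr4 and Cxcr6. Each is written 5′ to 3′ on the strand of its gene. Capitals mark 4 motifs on either strand. The KLF family motif is CACCC, which reads GGGTG on the opposite strand. The RUNX family motif is TGTGGT, which reads ACCACA when reversed, and the T-box family motif is TCACAC, which reads GTGTGA. The GATA family motif is AGATAA, which reads TTATCT, and no motif contains another. The Ccr4 window, chr9:114496495-114496794 on the minus strand, lies inside the longer GENCODE gene model with 65 of its 300 bases in Ccr4 exons. The Ccr9 window, chr9:123766961-123767260 on the plus strand, likewise lies inside its gene model with 92 bases in exons. The Cxcr3 window is chrX:101734098-101734397 on the minus strand, with 172 bases in exons, and the Cxcr6 window chr9:123806227-123806526 on the plus strand, with 52.
Ccr4: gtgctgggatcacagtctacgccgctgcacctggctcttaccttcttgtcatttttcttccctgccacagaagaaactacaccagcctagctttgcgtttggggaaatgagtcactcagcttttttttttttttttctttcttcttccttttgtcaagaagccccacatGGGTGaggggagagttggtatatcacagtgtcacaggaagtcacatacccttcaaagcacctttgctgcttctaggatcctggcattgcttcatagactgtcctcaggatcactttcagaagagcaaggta
Ccr9: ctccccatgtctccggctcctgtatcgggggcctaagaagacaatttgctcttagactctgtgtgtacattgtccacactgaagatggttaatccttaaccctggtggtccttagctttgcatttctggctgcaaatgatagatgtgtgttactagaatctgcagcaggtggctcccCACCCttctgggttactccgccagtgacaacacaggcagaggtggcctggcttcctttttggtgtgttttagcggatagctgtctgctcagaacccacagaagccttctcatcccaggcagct
Cxcr3: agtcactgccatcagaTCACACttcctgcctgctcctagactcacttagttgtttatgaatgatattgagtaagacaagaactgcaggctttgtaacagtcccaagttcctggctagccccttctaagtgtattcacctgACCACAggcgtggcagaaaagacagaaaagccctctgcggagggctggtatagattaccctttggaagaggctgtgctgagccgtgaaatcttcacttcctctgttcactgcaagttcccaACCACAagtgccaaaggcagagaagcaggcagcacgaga
Cxcr6: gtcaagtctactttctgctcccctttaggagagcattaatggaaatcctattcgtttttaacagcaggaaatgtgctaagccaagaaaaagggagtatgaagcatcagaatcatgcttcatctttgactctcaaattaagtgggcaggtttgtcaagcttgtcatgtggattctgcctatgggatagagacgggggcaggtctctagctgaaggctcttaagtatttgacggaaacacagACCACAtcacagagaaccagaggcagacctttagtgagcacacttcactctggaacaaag

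Among the 32851 promoter windows of the same length, the KLF letters were in 57.5%, the RUNX letters in 16.8%, the T-box letters in 14.5% and the GATA letters in 11.2%. Of the 5 receptors, Ccr4, Ccr9 and Cxcr4 had the KLF letters, Cxcr3 and Cxcr6 those of RUNX, Cxcr3 those of T-box and none those of GATA. Cxcr4, whose window is not shown, thus had the KLF letters although it was not called between the WT stages. A match of this kind describes letters in a window and is not a measured binding site.

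Cxcr6 was the most abundant of the 7 receptors in 8 of 9 libraries. Its FPKM was 78.4, 63.6 and 69.6 in WT stage 2, 94.5, 30.05 and 57.8 in WT stage 3, and 74.4, 76.1 and 73.6 in Med23-deficient cells. The stage 3 libraries spanned the whole range of the stage 2 libraries and beyond it, while the 3 Med23-deficient libraries lay close together. Cxcr3, which binds CXCL9 and CXCL10, was at 30.2, 36.0 and 28.6 FPKM in WT stage 2. It was at 51.4, 46.6 and 43.25 in WT stage 3 and at 48.0, 48.7 and 39.8 in Med23-deficient cells, so every library of both other groups was above every WT stage 2 library.

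Ccr4 is the receptor of CCL17 and CCL22. Its FPKM was 31.9, 26.5 and 31.5 in WT stage 2, against 41.5, 28.0 and 22.2 in Med23-deficient cells. In WT stage 3 it was at 0.84, 3.16 and 1.67, below every other library. Ccr7, the receptor of CCL19 and CCL21, had FPKM of 9.12, 7.83 and 12.1 in WT stage 2 against 8.0, 3.60 and 5.13 in Med23-deficient cells, and the WT stage 3 libraries were at 0.00, 0.11 and 0.17. The stage 3 values of Ccr7 were at the lower limit of the table, whose entries have 2 decimals.

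Ccr9, the receptor of CCL25, was at 7.40, 8.06 and 16.5 FPKM in WT stage 2, at 0.75, 0.01 and 0.44 in WT stage 3, and at 19.8, 10.6 and 12.3 in Med23-deficient cells. Cxcr4 was at 6.15, 16.6 and 21.05 FPKM in WT stage 2, at 5.68, 5.05 and 22.3 in WT stage 3, and at 8.78, 19.8 and 29.0 in Med23-deficient cells. Its 3 groups overlapped almost completely, and in each group the library numbered 3 was the highest. S1pr1 was at 20.4, 10.95 and 13.7 FPKM in WT stage 2, at 3.27, 1.38 and 2.41 in WT stage 3, and at 9.36, 7.70 and 10.1 in Med23-deficient cells. For S1pr1 the 3 groups did not overlap: Med23-deficient cells lay between the WT stages.

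**Figure D1:**
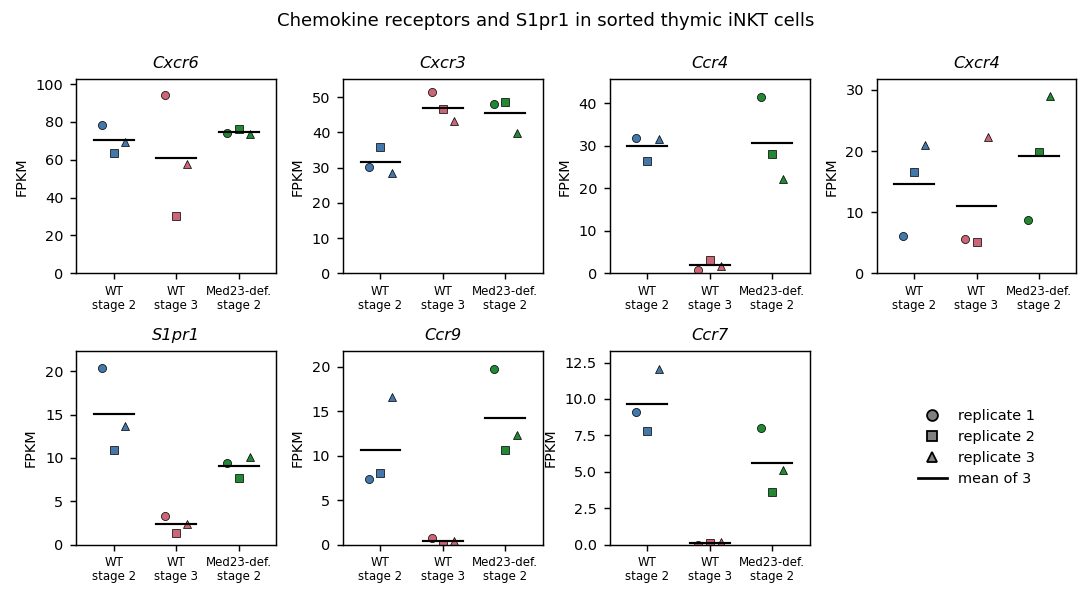
FPKM of the 7 receptor genes (vertical axes, each starting at 0) in the 3 groups of libraries (horizontal axes); symbols are single libraries and lines the means of 3. Ccr4, Ccr7, Ccr9 and S1pr1 are lowest in WT stage 3, where Ccr7 is at 0.17 or less, and Cxcr4 and Cxcr6 overlap between all groups.

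Ranked by mean FPKM in WT stage 2, Cxcr6 at 70.5 ± 7.46 (SD, n = 3) was followed by Cxcr3 at 31.6 ± 3.88, Ccr4 at 30.0 ± 3.04, S1pr1 at 15.0 ± 4.84, Cxcr4 at 14.6 ± 7.65, Ccr9 at 10.7 ± 5.09 and Ccr7 at 9.68 ± 2.18. Cxcr6 stood apart from Cxcr3, and Ccr4 from S1pr1, while Cxcr3 and Ccr4 overlapped, as did each neighbouring pair from S1pr1 down to Ccr7. In Med23-deficient cells the order was Cxcr6, Cxcr3, Ccr4, Cxcr4, Ccr9, S1pr1 and Ccr7, with gaps between Cxcr6 and Cxcr3 and between Ccr9 and S1pr1 and overlap between the other neighbours. In WT stage 3 the order was Cxcr6, Cxcr3, Cxcr4, S1pr1, Ccr4, Ccr9 and Ccr7. There Cxcr6 and Cxcr3 overlapped, as did S1pr1 with Ccr4 and Ccr9 with Ccr7, and the remaining neighbours did not.

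The 7 receptors made up 169 to 193 summed FPKM in WT stage 2, 86.4 to 156 in WT stage 3 and 192 to 210 in Med23-deficient cells. Cxcr3 gave 32.8%, 54.0% and 33.8% of that sum in WT stage 3, against 14.8% to 21.2% in WT stage 2 and 20.7% to 25.1% in Med23-deficient cells. Ccr4 gave 15.6% to 17.4% in WT stage 2 and 11.6% to 19.8% in Med23-deficient cells but 0.537% to 3.66% in WT stage 3. Set among all genes above 0, Ccr4 was higher than 93.5% of them in WT stage 2 and 94.1% in Med23-deficient cells, and higher than 48.0% in WT stage 3. Cxcr6 was higher than 97.4% to 98.0% of genes in each group.

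**Figure D2:**
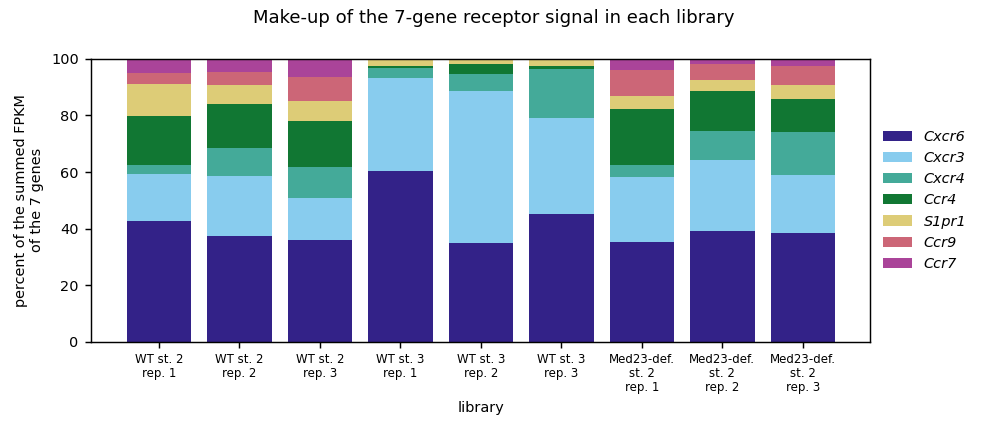
Percent of the summed FPKM of the 7 receptors (vertical axis) given by each gene (colours) in each of the 9 libraries (horizontal axis; st., stage; rep., replicate). In the 3 WT stage 3 libraries nearly the whole bar is Cxcr6, Cxcr3 and Cxcr4, and in the other 6 Ccr4, Ccr9, Ccr7 and S1pr1 are all visible, with smaller shares in every Med23-deficient than in any WT stage 2 library for Ccr7 (at most 3.81% against at least 4.62%) and S1pr1 (at most 5.24% against at least 6.46%).

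WT stage 3 cells were compared with WT stage 2 cells to ask how receptor transcripts change over terminal maturation. Ccr4, Ccr7, Ccr9 and S1pr1 fell, each under both rules, and Cxcr3, Cxcr4 and Cxcr6 were not called. By the fold and p thresholds 4 of 7 receptors were called, all lower, where 3.60% of the 20689 genes tested were called in either direction. By adjusted p the same 4 were called, against 1.67% of genes. Of the 7, 5 had groups without overlap, against 17.8% of genes. Here and below, shares of genes are over all gene models above 0 in at least 1 of 6 libraries, many of them low. The 7 receptors each had a mean of at least 1 FPKM in some group and were chosen with earlier results of these data known. The shares are therefore not those of genes of like level or like choice. The median log2 difference of the 7 was -2.25, against -0.01 over all genes tested. In a mixture of cells, fewer cells that carry a transcript and less transcript per cell cannot be told apart.

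Ccr4 fell by 3.50 ± 0.30 (SE) on the log2 scale with an adjusted p of 0.012, and its mean FPKM was 15.9-fold higher in stage 2. Ccr7 fell by 3.27 ± 0.24 with an adjusted p of 0.0084, and Ccr9 fell by 3.01 ± 0.38 with an adjusted p of 0.028. S1pr1, the egress receptor, fell by 2.25 ± 0.31 with an adjusted p of 0.034, and its mean FPKM was 6.38-fold higher in stage 2. All 4 kept the fold and p thresholds under each of 12 other settings and without any 1 library. The adjusted p was less steady: Ccr9 and S1pr1 exceeded 0.05 whenever any 1 of the 6 libraries was left out, with adjusted p of 0.067 to 0.111 and 0.062 to 0.123, and the highest value over the other settings was 0.345 for Ccr9 and 0.170 for S1pr1. For Ccr4 the adjusted p was 0.027 to 0.066 with 1 library left out and at most 0.229 over the other settings, and for Ccr7 it was 0.028 to 0.053 and at most 0.162.

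Cxcr3 differed by 0.56 ± 0.12 on the log2 scale, 1.49-fold by mean FPKM, with an adjusted p of 0.094. It was higher in 3 of 3 stage 3 libraries than in any stage 2 library, and over 12 other settings its adjusted p lay between 0.034 and 0.517. Cxcr4 differed by -0.52 ± 0.66 with an adjusted p of 0.751, and Cxcr6 by -0.35 ± 0.39 with an adjusted p of 0.717. The sign for Cxcr6 rested on WT stage 3 replicate 2, without which the difference was 0.07. That library also had the highest sums of immature thymocyte, B cell and myeloid markers, by small margins. These were 4.99 against 4.10 FPKM in WT stage 2 replicate 3, 0.51 against 0.50 in WT stage 2 replicate 2, and 2.33 against 2.32 in Med23-deficient replicate 3. Their part was not tested. The difference for Cxcr4 changed sign, to 0.50, in a Ballgown-style model with a library-size term (adjusted p 0.904). A missed threshold in groups as spread as these does not show that Cxcr4 and Cxcr6 were equal.

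Med23-deficient stage 2 cells were compared with WT stage 2 cells at the matched stage. The WT mice were 6 weeks old and the age of the Med23-deficient mice is not given. Any difference in age could therefore not be told apart from genotype. None of the 7 receptors was called under either rule by limma, where the fold and p thresholds called 2.11% of 20674 genes and the adjusted p 0.213%. At an unadjusted p of 0.05 or lower there were 3 of the 7, Ccr7, Cxcr3 and S1pr1, against 9.58% of genes, and a Ballgown-style model also called 0 receptors. Cxcr3 and S1pr1, 2 of the 7, had groups without overlap, against 14.0% of genes. The median log2 difference of the 7 was 0.09, against -0.01 over all genes tested.

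Cxcr3 was 1.44-fold higher by mean FPKM in Med23-deficient cells, a log2 difference of 0.51 ± 0.13 (SE) with an adjusted p of 0.238. S1pr1 differed by -0.64 ± 0.24 with an adjusted p of 0.460, each of the 3 libraries lying below the lowest WT stage 2 library. Ccr7 differed by -0.73 ± 0.29 with an adjusted p of 0.493, and here the highest Med23-deficient library, at 8.0 FPKM, was above the lowest WT stage 2 library, at 7.83. The other 4 differed by -0.01 ± 0.23 for Ccr4, 0.42 ± 0.35 for Ccr9, 0.38 ± 0.56 for Cxcr4 and 0.09 ± 0.09 for Cxcr6, with adjusted p from 0.731 to 0.985. The sign was not stable for Ccr4, Cxcr4 and Cxcr6: scaling each library to the same upper quartile moved Ccr4 to 0.09, scaling to the same sum moved Cxcr6 to -0.04, and without WT stage 2 replicate 1 Cxcr4 was at -0.11.

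Med23-deficient stage 2 cells were also set beside WT stage 3 cells, a comparison in which stage and genotype both differ and cannot be told apart. Each group serves in 2 of the 3 comparisons, so the values of one are not independent of those of the others. Ccr4, Ccr7, Ccr9 and S1pr1 were higher in Med23-deficient cells by the fold and p thresholds, 4 of 7 against 2.86% of 20846 genes. By adjusted p 3 of them were called, against 1.33% of genes, and 4 of 7 did not overlap, against 14.2% of genes. The median log2 difference of the 7 was 1.62, against 0.00 over all genes tested.

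The log2 difference of Ccr4 was 3.48 ± 0.36 (adjusted p 0.015), that of Ccr9 3.43 ± 0.32 (adjusted p 0.012) and that of Ccr7 2.54 ± 0.31 (adjusted p 0.023). With 1 library left out the adjusted p was 0.037 to 0.078 for Ccr4, 0.037 to 0.059 for Ccr9 and 0.043 to 0.097 for Ccr7. Over the other settings it was at most 0.240, 0.198 and 0.223 in the same order. S1pr1 differed by 1.62 ± 0.26 with an adjusted p of 0.054. Cxcr3 had a mean of 45.5 ± 4.97 FPKM (SD, n = 3) in Med23-deficient and 47.1 ± 4.07 in WT stage 3 cells, a log2 difference of -0.05 ± 0.11. Cxcr4 differed by 0.90 ± 0.65 and Cxcr6 by 0.44 ± 0.39, each with an adjusted p of 0.75. Without WT stage 3 replicate 3, its highest stage 3 library, Cxcr4 differed by 1.52 and passed the fold and p thresholds, with an adjusted p of 0.405, and in the same setting none of the 7 passed the adjusted p.

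**Figure D3:**
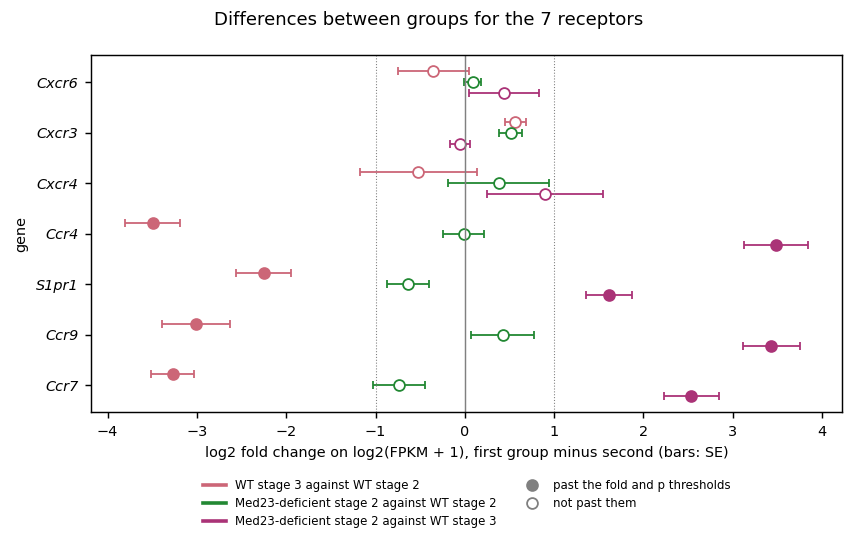
Log2 difference on log2(FPKM + 1) (horizontal axis, first group minus second) with its SE for each of the 7 receptors (vertical axis) in the 3 comparisons (colours). Filled points pass the fold and p thresholds; dotted lines mark a log2 difference of 1 in either direction. The filled points are Ccr4, S1pr1, Ccr9 and Ccr7 in the 2 comparisons that involve WT stage 3.

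In the genome, where the promoter windows above lie, Ccr4, Ccr9 and Cxcr6 are all on chromosome 9. Ccr9 (chr9:123678439-123784330) and Cxcr6 (chr9:123806475-123811760) lie on the same strand with 22144 bases between them. Between the WT stages, mean FPKM went from 10.7 to 0.40 for Ccr9 and from 70.5 to 60.8 for Cxcr6. Cxcr6 lies within Fyco1, which is on the other strand and had mean FPKM of 12.0, 13.5 and 15.1 in WT stage 2, WT stage 3 and Med23-deficient cells. The Ccr9 model overlaps the pseudogene Gm10052 on the other strand, at 82.7, 51.8 and 61.1 mean FPKM in the same order, far above Ccr9 itself at 10.7, 0.40 and 14.2. It also overlaps Lztfl1 on the other strand, at 2.47, 0.64 and 2.43. AC165425.1 on the other strand and Gm17020 on the same strand as Ccr9 overlap it too, each at 0.97 or less. The library kit keeps strand, but whether the quantification used it is not given in the sources used here, so reads of these overlapping genes may be shared.

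Of 16 other chemokine receptors looked for, 10 were in the table and 5 had a mean of at least 1 FPKM in some group. Between the WT stages, 1 was higher and 1 lower by the fold and p thresholds, where 3.60% of genes tested were called. The median log2 difference of the 10 was -0.16, against -0.01 over all genes. Ccr8, a receptor of CCL1, was at 12.0, 16.3 and 12.8 FPKM in WT stage 2, 24.6, 16.0 and 19.0 in WT stage 3 and 9.22, 5.80 and 17.2 in Med23-deficient cells, and it was not called in any comparison with a pseudocount of 1 and all libraries. Against WT stage 3 its log2 difference of -0.93 passed the fold and p thresholds with a pseudocount of 0.1 (-1.0) or 0.01 (-1.01) and without Med23-deficient replicate 3 (-1.30). Ccr2, the receptor of CCL2, was at 9.79, 14.3 and 10.6 FPKM in WT stage 2, at 11.2, 3.70 and 11.3 in WT stage 3 and at 12.9, 10.9 and 15.3 in Med23-deficient cells. Ccr2 was not called either, and its lowest library was WT stage 3 replicate 2, the library in which Cxcr6 was also lowest.

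Ccr10, a receptor of CCL27 and CCL28, fell between the WT stages, from 1.90, 1.18 and 2.01 FPKM to 0 in all stage 3 libraries (log2 difference -1.42 ± 0.18, adjusted p 0.029), and was at 0.45, 0.41 and 1.18 in Med23-deficient cells. Its adjusted p between the WT stages was 0.033 to 0.132 with 1 library left out, and against WT stage 3, where it was not called, it passed the fold and p thresholds in 3 of 11 other settings. Ccrl2, an atypical receptor that binds chemerin, was higher in WT stage 3 by the fold and p thresholds, at 5.31, 4.57 and 3.96 FPKM against 0.46, 1.70 and 1.59 (log2 difference 1.36 ± 0.31, adjusted p 0.116). In Med23-deficient cells Ccrl2 was at 0.83, 1.67 and 1.52, lower than in WT stage 3 by the same thresholds. Cxcr5, the receptor of CXCL13, was at 1.74, 0.33 and 1.68 FPKM in Med23-deficient cells, at 0.39, 0.00 and 0.40 in WT stage 2 and listed at 0 in all WT stage 3 libraries. It passed the fold and p thresholds against WT stage 3 with an adjusted p of 0.233, and not without Med23-deficient replicate 1, where the log2 difference was 0.92, or replicate 3, where it was 0.93, or on the TPM scale (each library scaled to the same sum), where it was 0.82. None of the 10 was called between Med23-deficient and WT stage 2 cells, where their median log2 difference was -0.04 against -0.01 over all genes. Cxcr5 passed the fold and p thresholds there without Med23-deficient replicate 2 (log2 difference 1.12, adjusted p 0.305). Against WT stage 3, Cxcr5 and Ccrl2 were the 2 called of 7 tested, where 2.86% of all genes tested were called. The median was 0.45 against 0.00.

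Of 16 genes for other S1P receptors, S1P handling and control of egress, 11 were in the table. By the fold and p thresholds, which called 3.60% of all genes tested, 1 was called between the WT stages. This was Cd69, whose protein binds S1PR1 and takes it off the cell surface. It was at 1.72, 4.69 and 3.40 FPKM in WT stage 2, against 9.21, 7.87 and 15.9 in WT stage 3, a log2 difference of 1.5 ± 0.37 with an adjusted p of 0.135, and it was at 3.84, 7.49 and 9.86 in Med23-deficient cells. The transcripts of S1pr1 and Cd69 differed in opposite directions between the WT stages. Klf2, which encodes a transcription factor known to activate S1pr1, was at 24.6, 27.5 and 27.4 FPKM in WT stage 2, against 27.8, 35.2 and 41.8 in WT stage 3, with every stage 3 library above every stage 2 library and no call. In Med23-deficient cells Klf2 was at 16.55, 16.4 and 24.4, each below every WT stage 2 library, again without a call. Foxo1, which encodes a factor upstream of Klf2, was at 10.4, 8.43 and 10.6 FPKM in WT stage 2, above every library of WT stage 3 (4.64, 7.02 and 6.84) and of Med23-deficient cells (6.18, 6.02 and 5.04), and it was not called either. S1pr4, a lymphocyte S1P receptor, was at 8.69, 6.30 and 8.26 FPKM in WT stage 2, at 12.0, 10.03 and 10.7 in WT stage 3 and at 9.26, 12.7 and 16.0 in Med23-deficient cells. The median log2 difference of the list was 0.07 between the WT stages and -0.07 in each comparison with Med23-deficient cells, where none was called. At the matched stage Cd69 differed by 0.90 ± 0.41 and passed the fold and p thresholds with a pseudocount of 0.01 (1.12), without Med23-deficient replicate 1 (1.23) and without WT stage 2 replicate 2 (1.14).

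Of 10 ligands of the receptors looked for, 3 were in the table, and the highest sum over these 3 was 3.26 FPKM in any library. The other 7 have no row and so no value here. Ccl25, the ligand of Ccr9, was at 1.39 to 2.62 FPKM, and none of the 3 was called in any comparison. Of 37 genes for G proteins and regulators below the receptors, 34 were in the table. Between the WT stages 3 were higher by the fold and p thresholds and none lower, where 3.60% of genes tested were called. The list median was -0.06 against -0.01 over all genes. Rgs1, which shortens G protein signals and restrains chemokine responses of lymphocytes, was at 3.57, 3.88 and 3.06 FPKM in WT stage 2 and rose to 12.5, 18.4 and 14.3 in WT stage 3 (log2 difference 1.82 ± 0.18, adjusted p 0.016). In Med23-deficient cells Rgs1 was at 2.46, 3.81 and 7.86. The adjusted p of Rgs1 between the WT stages was 0.041 to 0.084 with 1 library left out.

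Rgs2, of the same family, was at 14.96, 25.5 and 23.75 FPKM in WT stage 2, 42.2, 45.1 and 41.7 in WT stage 3 and 18.4, 24.6 and 22.95 in Med23-deficient cells. The log2 difference of Rgs2 between the WT stages was 1.01 ± 0.20 (adjusted p 0.084), and that of Pik3r5, a regulatory subunit of the PI3-kinase that G proteins activate, was 1.0 ± 0.25 (adjusted p 0.147). Both sat at the edge of the fold threshold and missed it with libraries scaled to the same sum, at 0.89 each. With Gm23935 left out of that scaling they missed it at 0.98 for Rgs2 and 0.97 for Pik3r5. Without WT stage 2 replicate 1 they missed it at 0.78 for Rgs2 and 0.77 for Pik3r5. Rgs2 also missed it without WT stage 3 replicate 2, at 0.97, and Pik3r5 without replicate 3, at 0.85.

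In Med23-deficient cells none of the 34 was called against WT stage 2, with a list median of 0.04. Gnaq, a G protein alpha subunit, differed there by 0.78 ± 0.27 and passed the fold and p thresholds in 3 of 12 other settings, with a pseudocount of 0.1 (1.41) or 0.01 (1.55) and on the TPM scale without Gm23935 (1.02). Against WT stage 3, Rgs2 was called by adjusted p alone (log2 difference -0.94 ± 0.12, adjusted p 0.027), but its adjusted p was 0.051 to 0.123 with 1 library left out, and it then passed the fold and p thresholds only without Med23-deficient replicate 2 (-1.03). In the same comparison Rgs1 was lower and Gnaq higher by the fold and p thresholds, with a list median of -0.02. Gnaq missed them on the TPM scale (0.89), and Pik3r5, not called with all libraries, passed them without Med23-deficient replicate 3 (-1.07).

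**Figure D4:**
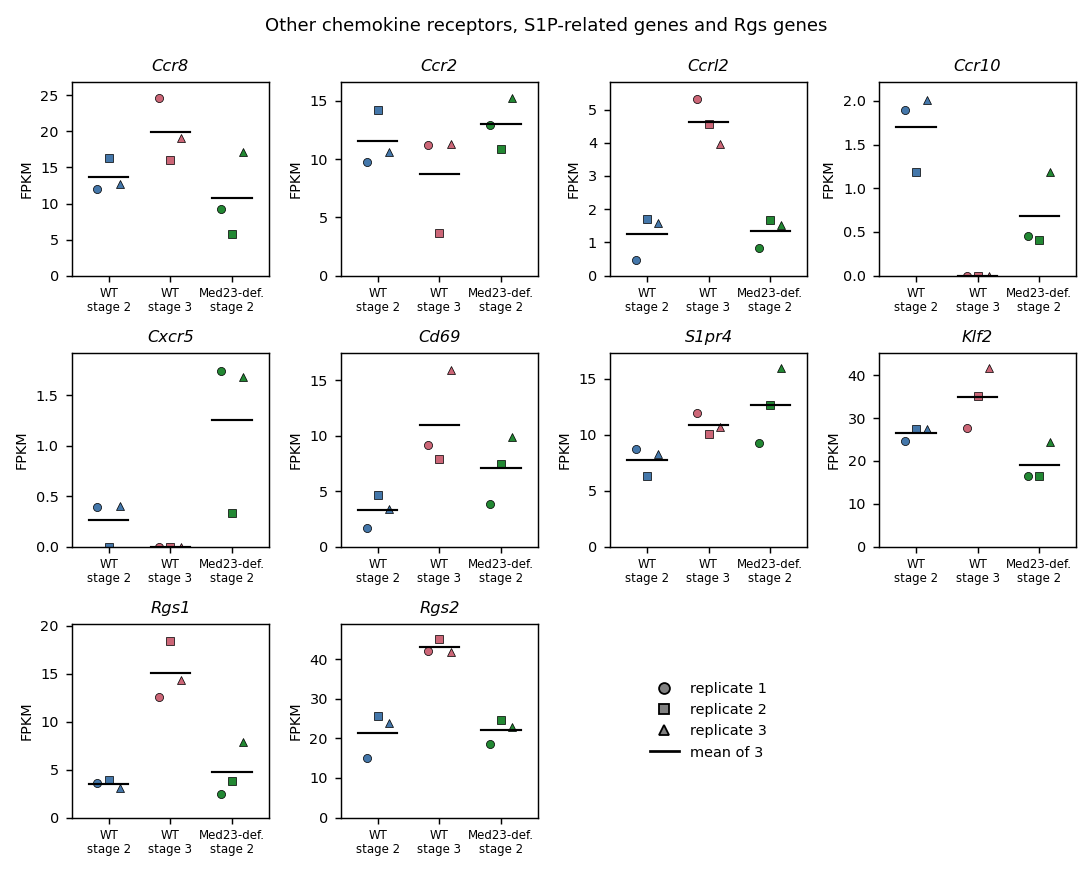
FPKM (vertical axes, each starting at 0) of 5 other chemokine receptors, 3 genes linked to S1P and 2 Rgs genes in the 3 groups (horizontal axes); symbols are single libraries and lines the means of 3. Ccrl2, Cd69, Rgs1 and Rgs2 are higher in every WT stage 3 library than in any WT stage 2 library, and Ccr10 is at 0 in WT stage 3.

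Transcripts that mark the functional subsets of iNKT cells also differed between the WT stages, and their part in the receptor differences was not tested. All 6 NKT1 markers were higher in WT stage 3 by the fold and p thresholds, which called 3.60% of genes tested there. Their summed level was 165, 200.1 and 178 FPKM in WT stage 2 and 609, 551 and 608 in WT stage 3, with Il2rb, a receptor chain for IL-15, as the most abundant gene in each library. Of 5 NKT2 markers 4 were lower, and their sum was 245, 228 and 270 FPKM in WT stage 2 and 73.5, 79.3 and 71.4 in WT stage 3, with Icos or Gata3 the most abundant. All 6 NKT17 markers were lower, from sums of 28.15, 24.5 and 29.3 FPKM to 2.09, 0.72 and 0, with Blk or Il23r the most abundant in WT stage 2, and Sdc1 and Il17re were at 0 in every WT stage 3 library.

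In Med23-deficient cells the NKT1 sum was 140.1, 184 and 206 FPKM, the NKT2 sum 289.5, 273 and 249.7, and the NKT17 sum 1.12, 0.10 and 0.16. The NKT1 sum is mostly Il2rb, and 2 of the 6 NKT1 markers were lower than in WT stage 2 by the fold and p thresholds, Klrb1c (log2 difference -1.88, adjusted p 0.210) and Klrd1 (-2.08, adjusted p 0.204), with a list median of -0.45. Klrk1 differed by -0.97 without overlap. No NKT2 marker was called, though 4 of 5 did not overlap, against 14.0% of genes tested. Gata3 (log2 difference 0.82, adjusted p 0.079), Il17rb (0.85, adjusted p 0.543) and Il4 (0.48, adjusted p 0.477) were higher in Med23-deficient cells and Icos lower (-0.60, adjusted p 0.088). All 6 NKT17 markers were lower than in WT stage 2 by the fold and p thresholds, which called 2.11% of genes tested there. Blk and Il23r were at 0 in each Med23-deficient library. Ccr6, a receptor known on NKT17 cells, was at 1.35, 0.00 and 0.03 FPKM in WT stage 2 and listed at 0 in the 6 other libraries. On the list of gamma delta T cell markers, 4 of 6 were lower in Med23-deficient than in WT stage 2 cells, and the list summed to 404, 435 and 367 FPKM in WT stage 2, 407, 411 and 341 in WT stage 3 and 9.11, 8.70 and 9.25 in Med23-deficient cells. The 4 are genes of the TCR gamma locus, Tcrg-C1, Tcrg-C2, Tcrg-C4 and Trgv2, with Tcrg-C2 or Tcrg-C1 the most abundant in the WT libraries, and the delta constant gene Trdc, which defines these cells, was at 0.38 or less in all libraries.

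**Figure D5:**
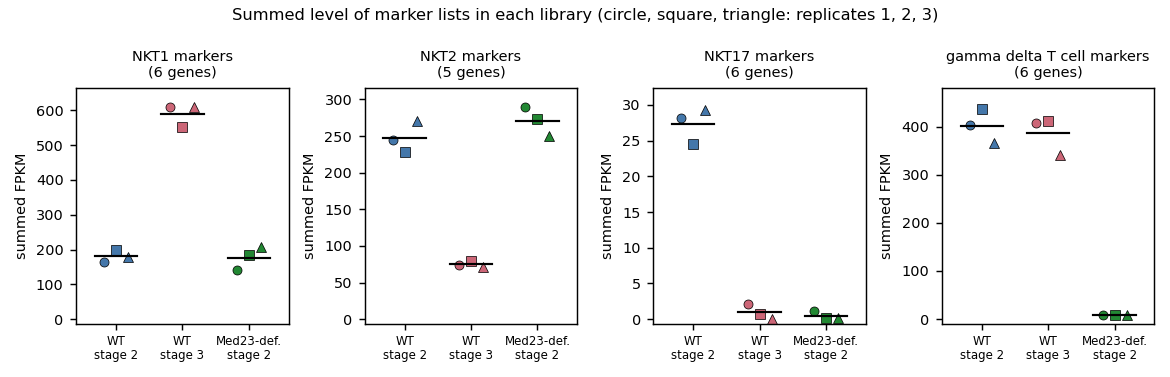
Summed FPKM (vertical axes) of 4 marker lists in the 3 groups of libraries (horizontal axes); symbols are single libraries and lines the means of 3. NKT1 sums are highest and NKT2 sums lowest in WT stage 3, NKT17 sums are high in WT stage 2 alone, and the gamma delta list is at most 9.25 in Med23-deficient cells and at least 341 in both WT groups.

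For each receptor that was called, the 3 genes with the most similar profile over the 9 libraries were taken from 10332 gene models with a mean of at least 1 FPKM in some group. Likeness was Pearson's r of log2(FPKM + 1), given as a description, since the libraries share groups and the 3 group means set most of it. Ccr4 was most like Pecam1 (r = 0.994), Ddr1 (r = 0.994) and Cd4 (r = 0.982). Pecam1, an adhesion molecule also carried by T cells, was at 8.31, 9.52 and 8.58 FPKM in WT stage 2, 1.76, 2.80 and 2.42 in WT stage 3 and 10.8, 8.81 and 7.59 in Med23-deficient cells. Ccr7 was most like Akap6 (r = 0.993), Smtn (r = 0.989) and Irf4 (r = 0.982). Ccr9 was most like Lmo4 (r = 0.994), Matk (r = 0.984) and Syne1 (r = 0.978), and S1pr1 most like Iigp1 (r = 0.989), Ckb (r = 0.983) and Mpp6 (r = 0.973). Among the receptors themselves over the same 9 libraries, Ccr4, Ccr7, Ccr9 and S1pr1 had pairwise r from 0.871 to 0.959, while Cxcr3 had r from -0.697 to -0.423 with these 4, Cxcr4 from 0.260 to 0.427 and Cxcr6 from 0.280 to 0.582.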

How the data were processed

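Bulk RNA-seq values of 9 libraries of sorted thymic iNKT cells were used. The authors made stranded total RNA libraries, trimmed reads with Trimmomatic 0.36, aligned them to mm10 with HISAT2, kept reads at no more than 2 loci and quantified GENCODE vM12 genes with StringTie, and the deposited table gives FPKM per gene. Columns were assigned to groups by their labels. Each comparison was fitted with limma 3.58.1 (lmFit, eBayes with a trend) in R 4.3.3 on log2(FPKM + 1) over genes above 0 in at least 1 of its 6 libraries, in place of the Ballgown test of the study, with its fold and p thresholds and with Benjamini-Hochberg adjustment over all genes tested. The fit was run on simulated data for the comparisons with WT stage 2, with independent genes and known differences in some expressed genes. This checked that the code returned the right sign. It had no effects shared by the genes of a library and does not show error rates in these data. Python 3.11.15 was used for values, motifs and figures. Gene symbols came from the table, where 41 symbols are on more than 1 row; no receptor is among them. The members and gene lists were chosen with earlier results of these data known. The list of other chemokine receptors was shortened by 1 gene after the fits. Named genes are the 7 receptors, other chemokine receptors with a group mean of at least 1 FPKM, genes of the S1P, ligand and G protein lists with such a mean that passed either rule, the 3 genes most like each called receptor and marker genes; Klf2, Foxo1, S1pr4, Ccr6 and Ccl25 were named after their values were seen. Alternatives were pseudocounts of 0.1 and 0.01, a mean of at least 1 FPKM, no filter, scaling each library to the same sum (TPM) with and without Gm23935, to a common upper quartile or by quantiles, limma without a trend, a Ballgown-style model, all 9 libraries, a replicate block and each library left out.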

Additional observations from a re-analysis of the deposited data

How the results depend on the processing

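The fold and p thresholds called 4, 0 and 4 receptors (WT stage 3 against WT stage 2, Med23-deficient against WT stage 2, Med23-deficient against WT stage 3) in all 12 other settings and without any 1 library, except 5 in the last without WT stage 3 replicate 3. By adjusted p, 4 receptors between the WT stages became 2 with no filter, 3 with a pseudocount of 0.01, 5 with a common upper quartile or quantile normalization, 0 in the Ballgown-style model and 0 to 2 with 1 library left out. Against WT stage 3, 3 became 2 with a pseudocount of 0.01, 4 at a mean of at least 1 FPKM or with all 9 libraries, 0 in the Ballgown-style model and 0 to 2 with 1 library left out. The 0 at the matched stage did not change. Genes past the fold and p thresholds, 745, 437 and 597, became 1423, 971 and 1221 with a pseudocount of 0.1 and 1452, 974 and 1211 with 0.01, where the smaller pseudocount enlarges differences of low genes, and 437 became 701 on the TPM scale without Gm23935. By adjusted p, 346 became 230 with no filter, 219 on the TPM scale, 5 in the Ballgown-style model, 600 with all 9 libraries and 22 to 137 with 1 library left out. At the matched stage 44 became 77 with a pseudocount of 0.01, 143 at a mean of at least 1 FPKM, 28 on the TPM scale, 27 without Gm23935, 1 in the Ballgown-style model, 162 with all 9 libraries and 1 to 8 with 1 left out. Against WT stage 3, 278 became 18 in the Ballgown-style model and 72 to 174 with 1 left out. Of genes called at the matched stage 37.8% were higher, 26.0% on the TPM scale and 51.8% in the Ballgown-style model. Signs changed between the WT stages for Cxcr4 (0.50, Ballgown-style), Cxcr6 (-0.74 to 0.0715 with 1 library left out) and Med23 (-0.0734 on the TPM scale, -0.0385 without Gm23935, -0.12 to 0.17 with 1 left out). At the matched stage they changed for Cxcr6 (-0.0422), Ccrl2 (-0.00368) and Rgs2 (-0.0647) on the TPM scale, Ccr4 with a common upper quartile (0.0888) or quantile normalization (0.0769), and Ccr8 (0.13) in the Ballgown-style model. With 1 library left out they changed there for Ccr4 (-0.25 to 0.19), Cxcr4 (-0.11 to 0.83), Ccrl2 (-0.20 to 0.26), Rgs2 (-0.17 to 0.20), Pik3r5 (-0.0717 to 0.40) and Rgs1 (-0.14 to 0.54), and against WT stage 3 for Cxcr3 (-0.11 to 0.0415). For the 12 genes most like a called receptor, r stayed at 0.899 or above; correlations between the receptors had no alternatives. The alternatives for Med23 and r were chosen after the data were seen. The cause of the other changes was not tested.

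With a replicate block the adjusted p called 0, 0 and 1 receptors and 19, 0 and 42 genes. The labels do not say whether the numbers pair the libraries, and the correlations that follow cannot settle it. Deviations of same-numbered libraries had r of 0.074, 0.027 and 0.144 between the WT stages. They had r of 0.031, 0.00066 and 0.121 at the matched stage and 0.043, 0.035 and 0.244 against WT stage 3. All were positive, and replicate 3 with replicate 3 was the highest pair in each comparison. Not every library was closest to its own number.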
